A study of Mus musculus with 48 samples.

Results

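The enteroendocrine hormone genes described here were Chga, Chgb, Gcg, Pyy, Cck, Sst, Insl5, Tph1, Neurod1 and Nts, taken as every probe whose accession mapped to 1 of these symbols. The 10 genes, of 18434 named genes, were measured by 12 of the 41174 probes on the arrays, with 2 probes each for Pyy and Tph1. Chgb, Gcg and Sst were spotted 10 times per array. Where a gene had 2 probes, the probe with the brighter colon signal represents it and the other is called its second probe.

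Liver and colon were taken from C57/BL6 mice at 12 weeks of age on 48 2-colour arrays, 24 per tissue, with mouse RNA in Cy3 and a common reference RNA in Cy5 on every array. Diet H was supplemented with selenium and folate and diet L was marginally deficient in both. The study's methods place H above and L below the recommended requirements. Group names pair the dam's diet in pregnancy and lactation (first letter) with the offspring's own diet after weaning (second letter). HH offspring therefore had diet H throughout, HL offspring changed to diet L at weaning, LH offspring changed to diet H at weaning, and LL offspring had diet L throughout. Each of the 12 slides held 4 arrays of a single tissue, 1 of each group, so slide was fitted as a block. All diets were high-fat, as the study's methods state, so no group on an ordinary diet is compared here. The colon groups had 6 mice each. The liver had 5 HH mice, because 2 arrays came from 1 animal and were averaged, and 6 mice in each other group. The labels give each sample its own code, apart from the 2 liver arrays that share one, and do not say which mice were litter mates or which colon and liver samples came from the same mouse. The study's methods take both tissues from offspring of the same groups, so the tissues may share mice, and the comparisons of colon with liver did not pair them. The labels describe the reference as RNA of several organs and the study's methods as pooled intestinal and liver RNA. A reference that contains gut RNA holds transcripts of these genes too, so all levels below are log2 ratios of mouse over reference for a single probe and are not compared between genes.

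Enteroendocrine cells are scattered hormone-secreting cells of the gut epithelium that sense luminal nutrients and microbial products. They store peptides in dense-core granules built with the granins, and subtypes are told apart by their hormones. In the mouse colon L cells make proglucagon, peptide YY and insulin-like peptide 5, enterochromaffin cells make serotonin, and D cells make somatostatin. Several of these peptides, and the granins, are also made by enteric neurons, and a sample of whole colon contains muscle and nerve as well as epithelium. In such bulk RNA, fewer cells of a type and less RNA per cell cannot be told apart.

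Markers of both tissues were checked. Between the colon and the liver, 9 of 10 epithelial genes and 9 of 9 smooth muscle genes were called higher in the colon, and 5 of 5 measured hepatocyte genes were called lower. Of all probes, 15.7% were called higher in the colon and 30.3% in either direction. In Cy3, 66.8 to 73.7% of spots on the colon arrays and 55.1 to 66% on the liver arrays were well above background. Xist, the RNA of the inactive X chromosome, exceeded a log2 Cy3 signal of 9 on 6 of 24 colon arrays and on 1 of 24 liver arrays, although the methods describe male offspring. In the colon these were HH replicates 1 and 5, HL replicate 5 and LL replicates 1, 3 and 5. HH replicates 1 and 5 and LL replicate 5 also had the Y-linked Eif2s3y, at log2 Cy3 signals of 10.7, 10.09 and 11.2. All results include these arrays unless stated. Without them the LH minus HH differences in the colon were 0.19 for Chga, 0.23 for Chgb, 0.42 for Pyy, 0.16 for Sst, 0.21 for Gcg and 0.30 for Nts, and none was called.

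All 10 genes were higher in the colon than in the liver, except that Neurod1 turned to -0.11 under median centring. For each of the 10 every colon mouse lay above every liver mouse, which held for 12.1% of all probes. At a fold change over 1.5 and a limma adjusted p under 0.05, 10 of 10 genes were called higher in the colon, against 15.7% of all probes tested. The granin Chgb, a soluble protein of secretory granules, averaged 2.84 in the colon and -3.97 in the liver on the log2 ratio scale, a difference of 6.81 with a standard error (SE) of 0.076. Nts, which encodes neurotensin, averaged 2.37 and -3.58, a difference of 5.94 (SE 0.10). Pyy, which encodes peptide YY, a hormone that slows gut transit and reduces appetite, averaged 1.85 and -3.96, a difference of 5.80 (SE 0.090). These 3 differences were larger than those of 99.93% of probes or more.

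The granin Chga differed by 5.31 (SE 0.073) and Gcg, which encodes proglucagon, the precursor of GLP-1 and GLP-2, by 4.97 (SE 0.093). Tph1, the enzyme that limits serotonin synthesis outside the brain, differed by 3.11 (SE 0.080) and Sst, which encodes the inhibitory hormone somatostatin, by 2.99 (SE 0.058). Insl5, the insulin-like peptide of distal L cells, averaged -1.04 in the colon and -2.65 in the liver, a difference of 1.61 (SE 0.089). Cck, which encodes cholecystokinin, a hormone mainly of the upper intestine, averaged -1.08 and -2.37, a difference of 1.29 (SE 0.087). Insl5 and Cck were thus below the reference in both tissues, while the other 8 genes were above it in every colon mouse and below it in every liver mouse.

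Neurod1, a transcription factor of maturing endocrine cells, was the dimmest gene. Its mouse signal was well above background on 19 of 24 colon arrays and on 0 of 24 liver arrays, and its reference signal on 4 of 48 arrays, so its ratio sets 2 signals near background against each other. Its bound from the channel signals was at least 1.22-fold higher in the colon, but the log2 difference of 0.68 was -0.11 with median centring, where the call was lost, and the call was also lost with local backgrounds as deposited (0.58) and with the Cy3 channel alone (0.47). The second probe of Tph1 was well above background on 24 colon arrays and 0 liver arrays. It was 4.58-fold higher in the colon by the channel signals and 3.83-fold by the log2 ratios. These are different measures, both with a liver signal not well above background. Nts was well above background on 24 colon arrays and 9 liver arrays. The other genes passed on 24 of 24 arrays of each tissue, but their liver signals were low, with log2 Cy3 medians of 6.48 for Tph1, 6.52 for Cck and 6.59 for Gcg, and the offset of 50 added before the log2 scale makes differences of such dim signals too small.

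**Figure D1:**
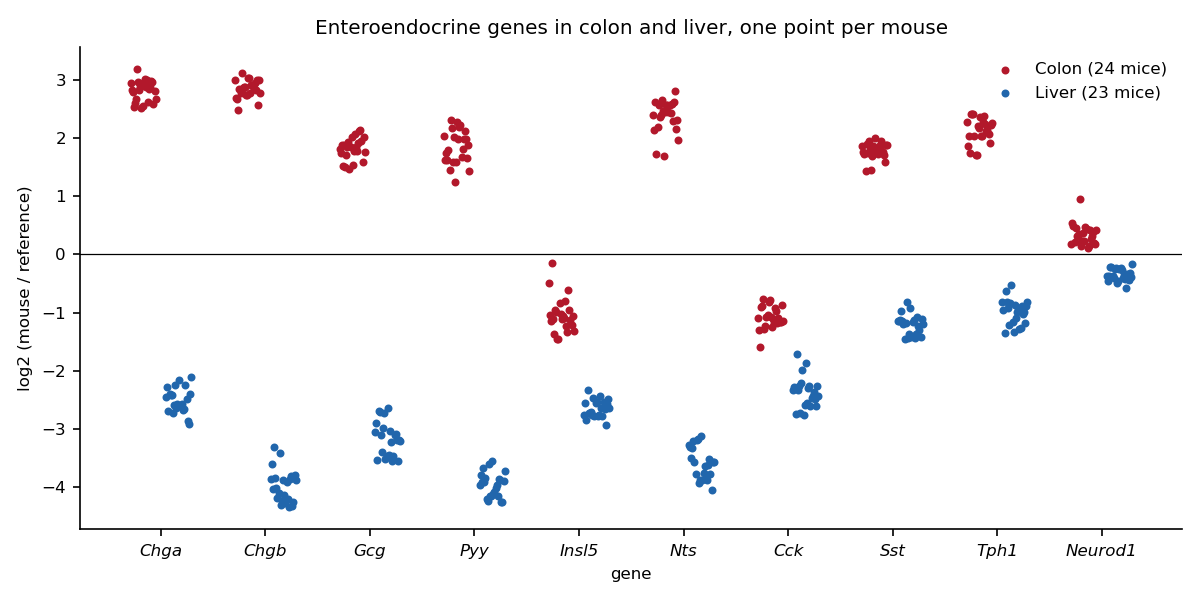
The log2 ratio of mouse over reference (y axis) of the 10 genes (x axis) is shown for each of 24 colon mice (red) and 23 liver mice (blue), with 1 point per mouse and the representative probe of each gene. For every gene the colon points lie above the liver points, with a mean difference of 6.81 for Chgb and 0.68 for Neurod1, the latter turning to -0.11 under median centring.

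Because the members shared this tissue pattern, their promoters were read for motifs in the 150 bases before the start site, from RefSeq sequences of build GRCm38.p6, which hold all 10 genes. The searched letters were TGACGTCA, the cAMP response element through which CREB acts, its half-site TGACG, which lies within it, and the E-box CANNTG bound by NeuroD1 and other basic helix-loop-helix factors, each on both strands, and TATAAA on the strand of the gene. The complete cAMP response element was present in 2 of 10 members, Chgb at -72 to -65 and Sst at -48 to -41, against 1.4% of 32851 promoters. At least 1 half-site was present in 5 of 10 members, against 13.3% of promoters, and these were Chga, Chgb, Cck, Sst and Tph1. An E-box was present in 5 of 10 members, against 47.7% of promoters, with 3 in Gcg. TATAAA was present in Gcg and Insl5, against 4.8% of promoters. Pyy, Insl5 and Tph1 have 2 start sites each, and a gene was counted if any of its windows matched, while the percentages count single windows. These counts describe letters in this window and not bound sites. The 4 sequences below are shown because they hold the complete element (Chgb, Sst), a half-site (Chga) or only a TATAAA among the capitalised motifs (Gcg), and capitals mark these matches.
Chga, chr12:102554791-102554940, plus strand: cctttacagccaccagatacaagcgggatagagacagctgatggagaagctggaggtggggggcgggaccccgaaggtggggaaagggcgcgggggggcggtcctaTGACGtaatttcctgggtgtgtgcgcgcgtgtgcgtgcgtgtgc
Chgb, chr2:132781492-132781641, plus strand: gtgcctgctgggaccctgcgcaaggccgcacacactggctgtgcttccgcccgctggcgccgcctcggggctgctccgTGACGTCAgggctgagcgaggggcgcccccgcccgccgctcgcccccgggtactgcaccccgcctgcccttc
Sst, chr16:23890845-23890994, minus strand: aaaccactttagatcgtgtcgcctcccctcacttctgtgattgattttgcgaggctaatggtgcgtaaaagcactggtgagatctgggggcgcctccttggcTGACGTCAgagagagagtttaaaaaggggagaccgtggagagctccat
Gcg, chr2:62483654-62483803, minus strand: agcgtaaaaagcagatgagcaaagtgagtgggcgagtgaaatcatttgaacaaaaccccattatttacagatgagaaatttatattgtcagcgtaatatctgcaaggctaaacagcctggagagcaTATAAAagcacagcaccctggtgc

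Whether the diet of the dam or of the offspring altered these genes in the colon was asked by 9 comparisons, the 6 pairs of groups, the effect of the dam's diet, the effect of the offspring's diet and their interaction. At a fold change over 1.5 and a limma adjusted p under 0.05, 0 of the 10 genes were called in any of them, and 0% of all 41173 probes tested were called. At an unadjusted p under 0.05 the comparison of LH with HH held 4 of 10 genes, against 8.08% of all probes. All 4 were higher in LH, against 4.94% of all probes. The comparison of LL with HH held 1 gene (3.43% of probes) and that of LH with HL 1 gene (7.9%). There were 0 genes for HL against HH (3.29%), LL against HL (2.4%), LL against LH (7.18%), the dam's diet (5.43%), the offspring's diet (5.44%) and the interaction (4.8%). The HL, LH and LL comparisons with HH share the HH mice, and comparisons that share a group are not independent.

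The intervals of these differences were narrow. In all 6 pairwise comparisons and for both main effects, the 95% interval of each of the 10 genes lay within a 1.5-fold difference in either direction. For the interaction this held for 7 of 10 genes. The fit took each mouse as independent, since litters are not labelled. Where mice shared a dam, the intervals could be too narrow, above all for the dam's diet. For Neurod1 the interval gives no limit, because both of its signals lay near background, and its dam diet value of -0.080 was -0.36 with the processed signals. The within-group standard deviation (SD) in the colon was 0.14 for Sst and 0.15 for Chgb, the lowest of the 10, and 0.29 for Pyy, 0.28 for Nts and 0.31 for Insl5, the highest, beside a median of 0.20 over the 25786 probes well above background on all colon arrays. The SD of Insl5 exceeded that of 88.8% of these probes, that of Pyy 85.1% and that of Nts 83.5%, while the SD of Sst exceeded that of 22.4%.

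**Figure D2:**
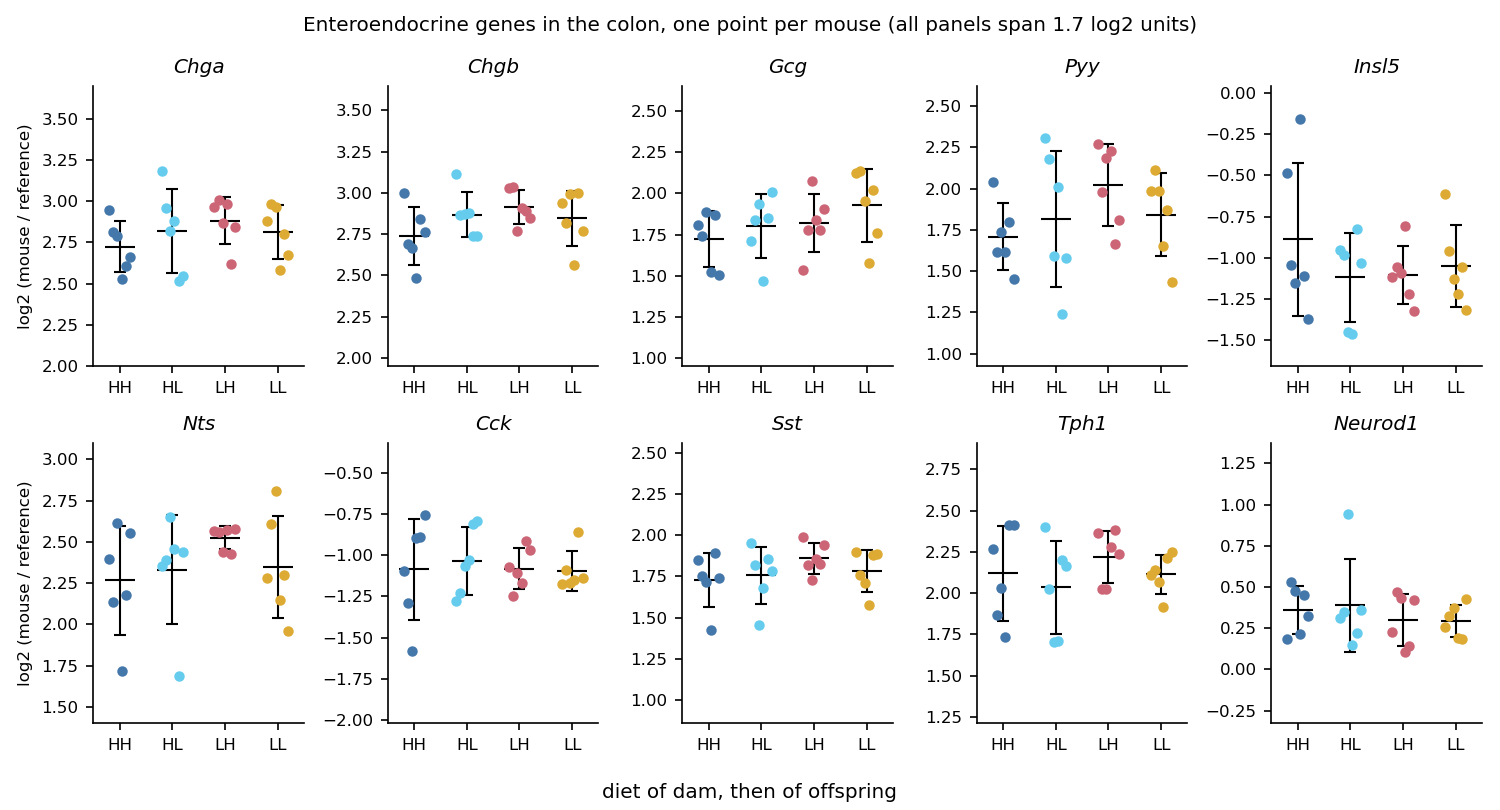
Each panel shows a gene in the colon, with the log2 ratio of mouse over reference on the y axis and the 4 diet groups on the x axis. Points are mice (6 per group), bars are the mean and SD, and all panels span the same number of log2 units. The groups overlap for all 10 genes, with Pyy at 1.71 in HH and 2.02 in LH, and the 6 LH mice lie close together for Nts.

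The 2 granins were slightly higher in LH than in HH. Chga ran from 2.53 to 2.94 in HH (median 2.73), from 2.51 to 3.18 in HL (2.85), from 2.62 to 3.01 in LH (2.92) and from 2.58 to 2.98 in LL (2.84). Chgb ran from 2.48 to 3.00 in HH (2.73), from 2.74 to 3.11 in HL (2.87), from 2.77 to 3.03 in LH (2.90) and from 2.56 to 3.00 in LL (2.88). The 4 groups overlapped for both genes. The LH mouse was above the HH mouse of its slide on 6 of 6 slides for Chga and on 6 of 6 for Chgb. The difference was 0.16 for Chga (SE 0.074, 95% interval 0.0045 to 0.31, adjusted p = 0.6) and 0.17 for Chgb (SE 0.070, interval 0.028 to 0.32, adjusted p = 0.531), which is 1.12-fold and 1.13-fold. The value of Chga was 0.098 with median centring and 0.26 with the Cy3 channel alone. Neither passed the test.

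Among the L cell hormones, Pyy gave the largest difference between LH and HH. It ran from 1.45 to 2.04 in HH (median 1.68), from 1.24 to 2.31 in HL (1.80), from 1.67 to 2.27 in LH (2.08) and from 1.44 to 2.12 in LL (1.93). LH was higher than HH by 0.31 (SE 0.12, interval 0.070 to 0.56, adjusted p = 0.494), on 5 of 6 slides. The second Pyy probe gave 0.17 for the same comparison (SE 0.096, interval -0.024 to 0.37), on 4 of 6 slides. The groups overlapped at both probes and no comparison of Pyy passed the test.

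Gcg had its lowest mean in HH and its highest in LL. It ran from 1.503 to 1.89 in HH (median 1.78), from 1.47 to 2.01 in HL (1.85), from 1.54 to 2.07 in LH (1.81) and from 1.58 to 2.13 in LL (1.99). The LL mouse exceeded the HH mouse on 6 of 6 slides, by 0.20 on average (SE 0.090, interval 0.017 to 0.39), with an adjusted p of 1. LH exceeded HH by 0.097 (SE 0.090), by 0.21 without the arrays with Xist and by 0.034 without LH replicate 4.

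Insl5 had the widest spread of the 10 genes. It ran from -1.37 to -0.16 in HH (median -1.08), from -1.46 to -0.83 in HL (-1.01), from -1.32 to -0.80 in LH (-1.10) and from -1.32 to -0.61 in LL (-1.09). The medians of the groups were close, and the HH mean was raised by replicates 4 and 1, at -0.16 and -0.48. LH was lower than HH by a log2 difference of -0.22 (SE 0.15, interval -0.52 to 0.093, adjusted p = 0.777), and this became -0.055 without HH replicate 4.

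Nts was narrow in LH and wide elsewhere. It ran from 1.72 to 2.62 in HH (median 2.29), from 1.69 to 2.65 in HL (2.42), from 2.43 to 2.58 in LH (2.56) and from 1.96 to 2.81 in LL (2.29). The SD was 0.070 in LH against 0.33, 0.33 and 0.31 in HH, HL and LL, and this difference in spread was not tested. LH was higher than HH by 0.26 (SE 0.13, interval -0.022 to 0.54, adjusted p = 0.661), on 5 of 6 slides, and by 0.15 without HH replicate 4.

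Cck and Sst, the hormones of I and D cells, differed little between groups. Cck ran from -1.58 to -0.76 in HH (median -0.995), from -1.28 to -0.79 in HL (-1.05), from -1.25 to -0.92 in LH (-1.09) and from -1.18 to -0.86 in LL (-1.15). The largest of its differences from HH was 0.051, for HL (SE 0.084, interval -0.12 to 0.23). Sst ran from 1.43 to 1.89 in HH (1.75), from 1.45 to 1.95 in HL (1.80), from 1.73 to 1.99 in LH (1.84) and from 1.58 to 1.90 in LL (1.82). LH was higher than HH by 0.13 for Sst (SE 0.060, interval 0.0052 to 0.25, adjusted p = 0.599), on 5 of 6 slides, with overlapping groups. This value was 0.070 with median centring and 0.27 with the Cy3 channel alone.

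Tph1, which marks enterochromaffin cells, was measured by 2 probes that did not give the same order of groups. The representative probe ran from 1.74 to 2.42 in HH (median 2.15), from 1.705 to 2.40 in HL (2.10), from 2.02 to 2.38 in LH (2.26) and from 1.92 to 2.25 in LL (2.13). HL was below HH by a log2 difference of -0.087 (SE 0.084) at this probe and above it by 0.20 (SE 0.11) at the second probe. The difference of LH from HL, which was the comparison of this gene with an unadjusted p under 0.05, was 0.18 at the representative probe with an adjusted p of 0.608, 0.11 without LH replicate 4, and -0.036 at the second probe. Neurod1 ran from 0.18 to 0.53 in HH (median 0.39), from 0.15 to 0.94 in HL (0.33), from 0.10 to 0.47 in LH (0.32) and from 0.18 to 0.43 in LL (0.29), so the groups overlapped throughout.

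Mice of dams on diet L were higher than those of dams on diet H in 7 of 10 genes, with a median log2 difference of 0.078 over the 10 genes beside 0.0017 over all probes. Pyy gave 0.17 (SE 0.083, adjusted p = 0.911), Nts 0.14 (SE 0.095) and Gcg 0.11 (SE 0.064), the last on 6 of 6 slides. The second Pyy probe gave 0.089 (SE 0.068), on 4 of 6 slides. With median centring Pyy was at 0.11, Nts at 0.082 and Gcg at 0.054. The same setting put Tph1 at 0.037, Sst at 0.026, Chga at 0.017 and Chgb at 0.016. It put Cck at -0.074 and Insl5 at -0.13, so the shift over the 10 genes depended on the normalization. Nts was also at 0.057 without the arrays with Xist, at 0.085 without HH replicate 4 and at 0.082 without HL replicate 5. For the diet of the offspring 5 genes were higher and 5 lower, between -0.095 for Tph1 and 0.095 for Gcg, with a median of -0.0073. The Tph1 value is that of its representative probe, where HL differed from HH by -0.087 and LL from LH by -0.10. At the second probe these differences were 0.20 and -0.062, so the sign of the first depended on the probe. The interaction, defined as the effect of the offspring's diet L under dams on diet L minus that under dams on diet H, ranged from -0.29 for Pyy (SE 0.17) to 0.28 for Insl5 (SE 0.21), with an adjusted p of 0.99 for each. The value of Insl5 was 0.12 without HH replicate 4, 0.16 without HL replicate 4 and 0.15 without the arrays with Xist, and that of Pyy was -0.55 without the arrays with Xist. For LH against HH the median over the 10 genes was 0.11, beside 0.0043 over all probes. With median centring this comparison gave 0.034 for Gcg, 0.036 for Tph1 and -0.050 for Cck.

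**Figure D3:**
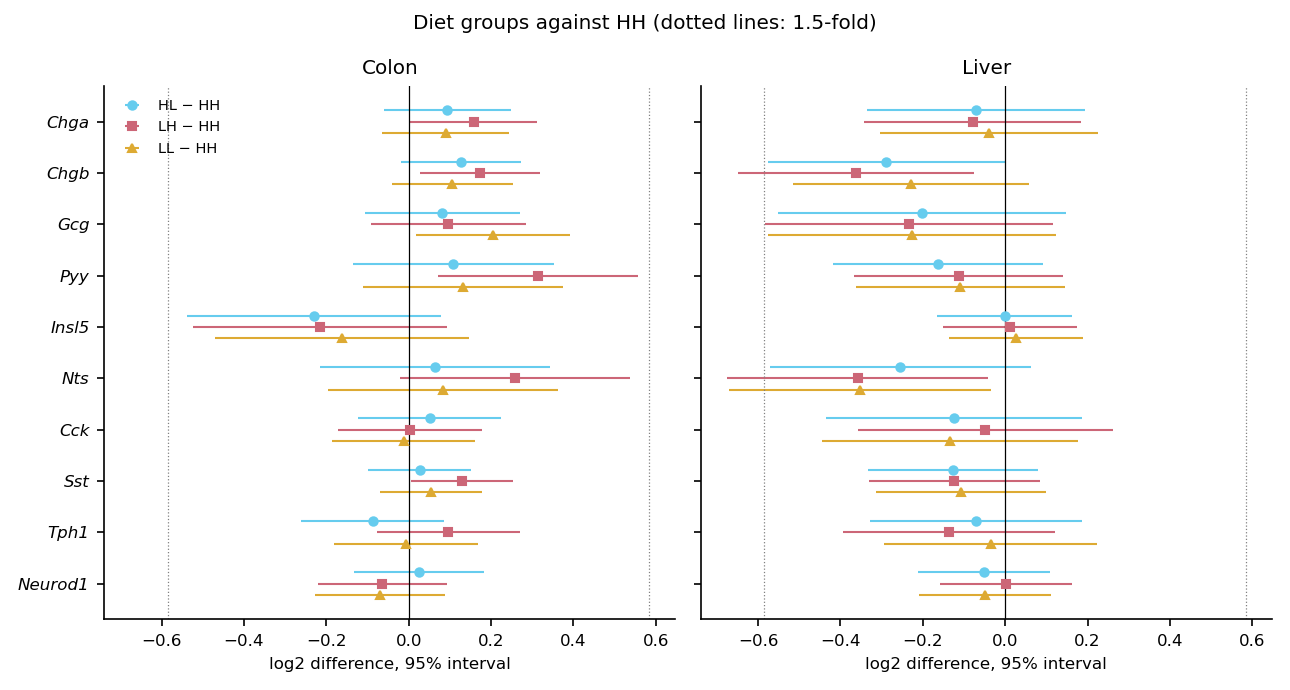
The x axis gives the log2 difference of HL (circles), LH (squares) and LL (triangles) from HH with its 95% interval for the 10 genes (y axis), in the colon on the left and the liver on the right, and dotted lines mark a 1.5-fold difference. In the colon Chga, Chgb, Pyy and Sst have intervals above 0 for LH, while in the liver the intervals of Chgb and Nts for LH lie below 0. None of these passed the test after adjustment.

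Other genes of the endocrine pathway were read from lists. Granules are filled and their prohormones cut by a shared machinery. Of the measured genes of granins and prohormone processing, 10 of 10 were called higher in the colon than in the liver, against 15.7% of all probes. Between LH and HH 0 of these 10 were called, while 4 were higher and 1 lower at an unadjusted p under 0.05, beside 8.08% of all probes in either direction, with a median of 0.15. Scgn, the calcium sensor secretagogin, was higher by 0.27 (SE 0.095), Pcsk2, prohormone convertase 2, by 0.21 (SE 0.074), the granin Scg2 by 0.19 (SE 0.072) and the convertase inhibitor Pcsk1n by 0.14 (SE 0.063). Pam, which amidates peptide hormones, differed by -0.27 (SE 0.085). Their adjusted p-values lay between 0.431 and 0.569.

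Of 16 transcription factors of endocrine differentiation 8 were called higher in the colon than in the liver and 3 lower. Over all probes 15.7% were called higher and 30.3% in either direction. Between LH and HH 0 of the 16 were called. At an unadjusted p under 0.05, 1 was higher and 1 lower in LH, beside 8.08% of all probes in either direction. Nkx2-2 was at -0.24 (SE 0.081, adjusted p = 0.457) and Etv1 at 0.16 (SE 0.070, adjusted p = 0.547) for LH against HH. Among 7 genes of serotonin handling 0 were called and 1 had an unadjusted p under 0.05, the vesicular transporter Slc18a1 at 0.24 (SE 0.087, adjusted p = 0.481). Among 21 measured hormone receptors 0 were called and 1 had an unadjusted p under 0.05, beside 8.08% of all probes. It was the neurotensin-binding sorting receptor Sort1, at 0.24 (SE 0.067, adjusted p = 0.396). For the 7 other measured gut hormones, the 12 measured nutrient sensors and the 3 peptidases 0 genes were called and 0 had an unadjusted p under 0.05 between LH and HH. Their medians were 0.037, 0.0051 and 0.099.

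For the dam's diet the 3 genes of lowest p in each list were read, and none was called, with adjusted p-values from 0.905 to 0.965. Among granins and processing these were Pcsk2 at 0.15 (SE 0.052), Pcsk1n at 0.10 (SE 0.044) and Scgn at 0.13 (SE 0.067), all higher under dams on diet L. Among transcription factors they were Nkx2-2 at -0.17 (SE 0.057), Neurog3, which commits cells to the endocrine fate, at -0.094 (SE 0.047) and Insm1 at -0.092 (SE 0.054), all lower. Ffar4, a receptor for long-chain fatty acids, was at -0.18 (SE 0.087), Ffar1 at 0.11 (SE 0.054) and Gprc6a, above background on 3 of 24 colon arrays, at -0.058 (SE 0.039). In serotonin handling Gch1, which makes a cofactor of Tph1, was at -0.15 (SE 0.066), Slc18a1 at 0.093 (SE 0.061) and the decarboxylase Ddc at -0.074 (SE 0.050). The receptors were Sort1 at 0.0995 (SE 0.048), Ntsr2 at -0.063 (SE 0.042) and Rxfp3 at 0.21 (SE 0.15). The other hormones Gast, Ppy and Sct were at 0.053, 0.047 and 0.039, and the peptidases Fap, Mme and Dpp4 at 0.052, 0.068 and 0.063.

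Markers of other cells in the colon were set beside these values. Of 14 genes of enteric neurons 7 were higher in LH than in HH at an unadjusted p under 0.05, beside 4.94% of all probes, with a median of 0.13, 0 were lower and 0 were called. They were Elavl4, Uchl1, Tubb3, Snap25, Syt1, Vip and Gap43, with Syt1 at 0.30 (SE 0.082) and Vip at 0.30 (SE 0.11). The mean log2 ratio of the 12 neuronal genes well above background on at least 18 colon arrays ran from 1.37 to 1.73 in HH (median 1.48), from 1.46 to 1.69 in HL (1.54), from 1.56 to 1.87 in LH (1.61) and from 1.40 to 1.66 in LL (1.57), so the groups overlapped. Nos1 and Ret, which define enteric neurons too, were well above background on 2 of 24 colon arrays each.

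For glia and smooth muscle, LH against HH held 0 of 4 and 0 of 9 genes at an unadjusted p under 0.05, with medians of 0.059 and 0.020. Adipocyte genes had a median of -0.54, with Lep at -0.76 (SE 0.35, adjusted p = 0.587), and 0 of 5 were called. Their mean log2 ratio ran from 1.31 to 2.45 in HH, from 0.69 to 2.68 in HL, from -0.97 to 2.29 in LH and from -0.85 to 3.15 in LL. Leukocyte genes had a median of 0.13 with 0 of 7 at an unadjusted p under 0.05, and their mean log2 ratio was 1.85 in LL replicate 4, against at most 0.21 in HH, 0.13 in HL and 0.13 in LH. LL replicate 4 also had the lowest mean over the 10 hormone genes in LL, at 1.18, and 0 genes were called without it. The epithelial list had a median of -0.026, with Krt20 at -0.26 (SE 0.12). Of 5 genes of absorptive colonocytes 2 were lower at an unadjusted p under 0.05, against 3.14% of all probes, and 0 were called. The median of the 5 was -0.16, with Slc26a3, the chloride exchanger of surface cells, at -0.45 (SE 0.19, adjusted p = 0.546). Their mean log2 ratio was 0.27 in HH replicate 4, against an HH median of -0.38 and at most -0.25 in HL, -0.34 in LH and -0.29 in LL. This mouse also had the highest Insl5 of HH, at -0.16. Of 8 goblet cell genes 0 had an unadjusted p under 0.05, with a median of -0.11. Of 10 pancreatic genes, 9 were well above background on at least 18 colon arrays. Between the tissues 15.7% of all probes were called higher in the colon and 30.3% in either direction. Of the pancreatic genes 2 were called higher in the colon than in the liver, Ppy and Cela1, and 3 lower. Their mean log2 ratio ran from -2.17 to -1.69 over the colon mice, 0 had an unadjusted p under 0.05 between LH and HH, and Ins1 was well above background on 1 of 24 colon arrays. The part of nerve, fat, immune or pancreatic tissue in the values of the hormone genes was not tested.

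Whether the genes varied together from mouse to mouse was measured over the 24 colon mice after the means of slide and group had been removed. Of 45 pairs, 24 correlations were positive, the median Pearson r was 0.034 and the range was -0.589 to 0.843. After Benjamini-Hochberg adjustment of permutation p-values over the 45 pairs, with values permuted within slides, 3 pairs were under 0.05 by Pearson and 3 by Spearman. Chga and Chgb had r = 0.843 (rho = 0.859, permutation p = 0.00016 and 0.00012, adjusted p = 0.0072 and 0.0054), and r was 0.837 without the 2 mice farthest from the median of Chga. Chga and Pyy had r = 0.711 (rho = 0.696, permutation p = 0.00099 and 0.00111, adjusted p = 0.0223 and 0.025), and r was 0.631 without 2 mice. Chgb and Nts had r = 0.679 (rho = 0.702, permutation p = 0.00299 and 0.0023, adjusted p = 0.0448 and 0.0345), and r was 0.605 without 2 mice. Without removal of slide and group means the last pair had r = 0.51 and an adjusted permutation p of 0.0548.

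Among the 18 mice without Xist the same pairs gave r = 0.796, 0.565 and 0.527, with adjusted permutation p-values of 0.0881, 0.0881 and 0.297, so no pair passed there. Over all 24 mice Gcg and Insl5, both hormones of L cells, had r = 0.566 (rho = 0.623, adjusted permutation p = 0.0811 and 0.0815), and r was 0.499 without 2 mice. Without removal of slide and group means r of this pair was 0.092. The other pairs of L cell hormones had r = 0.265 (Gcg and Pyy) and r = -0.083 (Pyy and Insl5). Cck and Sst had the lowest r, -0.589 (rho = -0.532, adjusted permutation p = 0.0811 and 0.105), and r was -0.486 without 2 mice. Without removal of slide and group means r of Cck and Sst was -0.015. Neither Gcg with Insl5 nor Cck with Sst passed the adjustment.

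**Figure D4:**
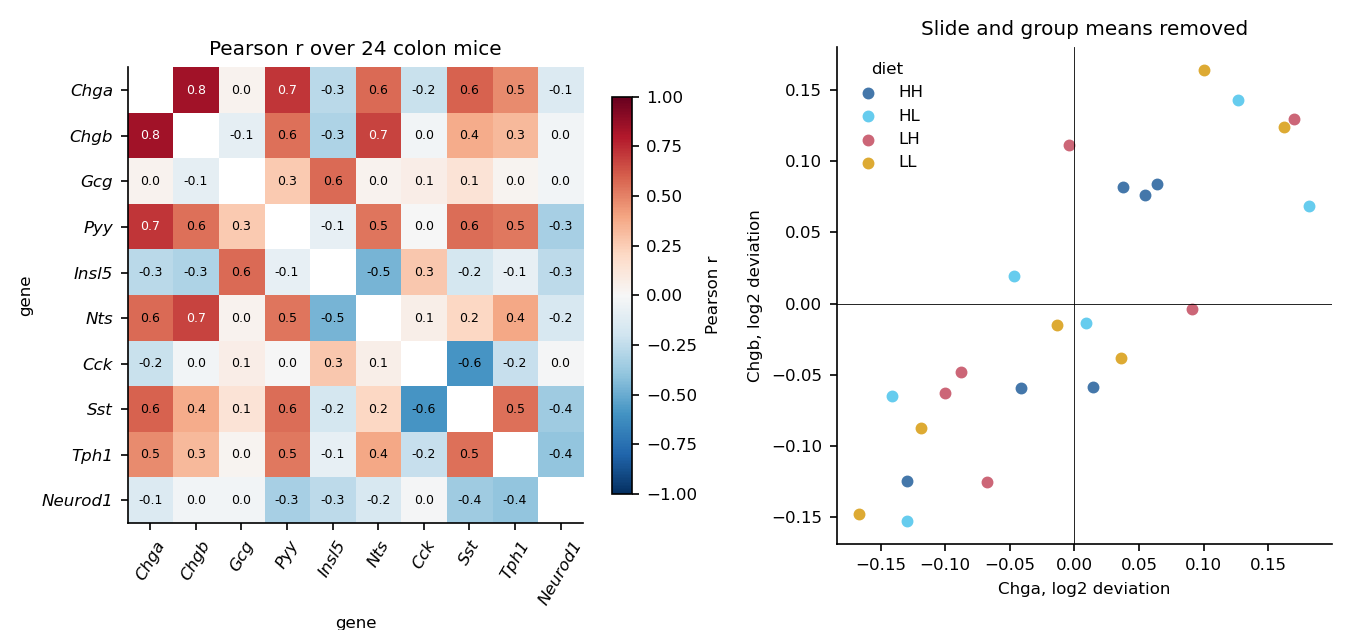
On the left, colour and number give the Pearson r of each pair of the 10 genes over 24 colon mice. On the right, each point is a mouse coloured by diet group, with the deviation of Chga (x axis) and Chgb (y axis) in log2 units after slide and group means were removed. The pair Chga and Chgb has r = 0.843, the highest of 45.

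The levels of neurons, glia, smooth muscle and epithelium, each as the mean of its marker genes, were compared with the 10 genes in the same way. Of these 40 relations, chosen after the diet values had been seen, 0 had an adjusted permutation p under 0.05. The highest was that of Sst with enteric glia, with r = 0.676 and rho = 0.723 (permutation p = 0.0104 and 0.00192, adjusted p = 0.408 and 0.0768), and r was 0.624 without the 2 mice farthest from the median of the glial level. Chga had r = 0.401 with neurons and 0.235 with epithelium (adjusted permutation p = 0.641 and 0.798). Pyy had r = 0.414 with neurons and 0.002 with epithelium (adjusted permutation p = 0.429 and 0.993).

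The genes most like each member were sought by Pearson r over the 24 colon mice, with slide means removed. The search covered 14255 named genes well above background on all colon arrays, and its results are given without a test. They were picked as the highest of 14255 r values, so their size alone does not mark a relation. Scg5, the chaperone of prohormone convertase 2, was first for Pyy (r = 0.826) and next after Ap3b2 for Chga (0.765). Ap3b2, a neuronal subunit of the vesicle adaptor AP-3, came after Fhit (0.884) for Chga, at 0.796, and after Aatk (0.772) for Pyy, at 0.767. Chgb was closest to Lrrn1 (0.809), Lrp11 (0.747) and the vesicular monoamine transporter Slc18a1 (0.733). Cck was close to Ern1 (0.762) and Ly6g6e (0.751). Sst was closest to Pcp4 (0.839), Esm1 (0.835) and Rbm24 (0.829). Gcg was closest to Nipsnap1 (0.743), Nf1 (0.72) and Cubn (0.686), and Insl5 to Aadac (0.784), Dnm1l (0.763) and Ndufa4 (0.755). Tph1 was closest to Cox16 (0.786), Jph1 (0.711) and P4htm (0.709), Neurod1 to Maz (0.772), Psap (0.757) and Zswim5 (0.741), and Nts to Zfp667 (0.773), Pfkl (0.762) and Olfr1344 (0.756).

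In the liver 0 of 10 genes were called in any of the 9 comparisons, and 0% of all 41171 probes tested. The study itself reported liver probes past the same limits in several comparisons, most for HH against LH. Its methods describe no slide term and no averaging of arrays from 1 animal, and why the counts differ was not tested. At an unadjusted p under 0.05, LH against HH held 2 genes, both lower in LH (14.8% of all probes), HL against HH 1 gene (6.5%), LL against HH 1 (4.67%), the dam's diet 1 (5.63%) and the interaction 1 (14.2%). There were 0 genes for LH against HL (2.48%), LL against HL (4.88%), LL against LH (9.52%) and the offspring's diet (2.03%). The 2 genes for LH were Chgb and Nts. Chgb ran from -4.02 to -3.30 in HH (median -3.83, n = 5) and from -4.34 to -3.87 in LH (-4.16, n = 6), with a difference of -0.36 (SE 0.14, interval -0.65 to -0.076, adjusted p = 0.227) on 5 of 5 slides that could be compared.

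Nts ran from -3.49 to -3.21 in HH (median -3.30) and from -3.88 to -3.12 in LH (-3.81), with a difference of -0.36 (SE 0.15, adjusted p = 0.274). In LL it ran from -4.05 to -3.52 (-3.59), below every HH mouse, which held for 1 of 10 genes and for 0.249% of all probes. The signal of Nts was well above background on 4 of 6 HH arrays, 3 of 6 HL arrays, 2 of 6 LH arrays and 0 of 6 LL arrays, so the LL values are at background and their difference from HH (adjusted p = 0.993) has no measured size. With the Cy3 channel alone its LH difference was -0.084, and with local backgrounds as deposited -0.62.

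The LH differences of the colon and the liver were compared in a model of all 8 groups. The colon minus liver value was 0.56 for Chgb (SE 0.15, 95% interval 0.25 to 0.87, adjusted p = 0.213), 0.61 for Nts (SE 0.20, interval 0.20 to 1.02, adjusted p = 0.258), 0.44 for Pyy (SE 0.18, adjusted p = 0.344) and 0.25 for Sst (SE 0.12, adjusted p = 0.41). None was called, and 0 of the 41171 probes were called. The directions of Chgb and Nts in the 2 tissues were opposite for LH, but the difference between tissues did not pass the test. For Nts the liver signal was well above background on 4 of 6 HH arrays and 2 of 6 LH arrays. The liver part of its value therefore lay near background.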

How the data were processed

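RNA from colon and liver was measured on Agilent 2-colour arrays. The authors deposited the intensity of each spot and its local background in both channels, not normalized, together with processed intensities and 1 table of log2 values. Set against ratios computed here, these log2 values ran as reference over mouse and matched loess of the median intensities without background correction (Pearson r at least 0.9997 on every array), and its array medians lay between -0.0012 and 0.0185. Per the labels, R 3.0.2 and limma were used upstream.

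Names came from accessions through RefSeq and matched 27050 of 41174 probes. Local backgrounds brighter than their spot in a channel were replaced by the array median, normexp with an offset of 50 was applied, then global loess, and ratios were turned to mouse over reference and averaged over the spots of a probe. Control spots and outlier-marked spots were left out. Each tissue was fitted with limma 3.58.1 in R 4.3.3 (lmFit, eBayes) as 4 groups with slide as a fixed block, and colon and liver together as 8 groups with slide as a random block (correlation 0.206). P-values were adjusted by Benjamini-Hochberg across every probe of a comparison, and intervals are 95%. Slides come from the labels. Arrays of different groups on a slide deviated together in the colon, with correlations above 0.1 for 34 of 36 pairs (median 0.359), and in the liver for 18 of 33 (median 0.132). Correlations used 100000 permutations within slides (numpy 2.4.6). Alternatives varied the background correction, normalization, use of the reference channel, filter on dim probes, slide term, array weights, threshold and the arrays or mice included. The code was tested on simulated data.

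Every member probe was named. From each list the called genes or, where these were under 3, the 3 with the lowest p for the dam's diet were named, and for each member the 3 most alike genes, while genes with an unadjusted p under 0.05 between LH and HH were named after their values were seen. The members and lists were chosen with earlier results of these data known. Of the most alike genes, 1 is not reported here. P-values measure the spread between these mice, and the number of arrays limits the precision.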

Additional observations from a re-analysis of the deposited data

Results flagged for a closer look

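Of 80 groups of mice, 10 genes in 4 diet groups of 2 tissues, 10 held a mouse far from the others of its group, where chance gives about 1 in 20. In the colon these were Chgb in HL replicate 1 at a log2 ratio of 3.11 (the next mouse at 2.88), Cck in LL replicate 5 at -0.86 (next -1.09), Neurod1 in HL replicate 3 at 0.94 (next 0.36) and Nts in HL replicate 5 at 1.69 (next 2.35). HL replicate 5 and LL replicate 5 were among the colon arrays with Xist. In the liver 3 genes pointed to LH replicate 1 as the highest of its group, Chga at -2.15 (next -2.56), Pyy at -3.55 (next -3.96) and Nts at -3.12 (next -3.63). The other liver values were Chgb in HL replicate 4 at -3.41 (next -4.02), Gcg in LL replicate 4 at -3.54 (next -3.19) and Sst in HH replicate 4 at -0.97 (next -1.13).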

How the results depend on the processing

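In the colon 0 of the 10 genes were called in any diet comparison under 14 alternatives, and 0 with each of 24 mice left out (lowest and highest count 0), with or without slide as a replicate block. The lowest adjusted p of a member was 0.169. In the liver 0 were called under 17 alternatives and with each of 23 mice left out, where the lowest adjusted p was 0.0511, for Chgb in the interaction without LL replicate 4. Over all liver probes the interaction counts ran from 0 to 602, the highest again without LL replicate 4. Signs of uncalled values changed in 72 of 1230 colon and 190 of 1491 liver values under alternatives, and in 92 of 2160 and 185 of 2070 with a mouse left out. All 10 genes were called between colon and liver except that Neurod1 was lost with local backgrounds as deposited (0.58), with the Cy3 channel alone (0.47) and with median centring, where it was -0.11. Median centring put the median of all probes at -0.22, against -0.010. Without removal of slide and group means (no replicate block) 7 pairs of genes correlated with an adjusted p under 0.05, among them Chga and Cck with r = -0.576 but not Chgb and Nts, against 3 and against 0 without the arrays with Xist, which left 18 mice. The causes were not tested. Dim signals limit Neurod1 in both tissues and Nts in the liver.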

Other observations

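The 2 liver arrays of the HH animal measured on both gave log2 ratios of -4.02 and -4.03 for Chgb, -3.56 and -3.49 for Gcg and -2.73 and -2.74 for Cck. They were further apart for Chga, at -2.85 and -2.54, Pyy, at -4.05 and -3.76, and Nts, at -3.59 and -3.39.

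The second Pyy probe differed less between colon and liver than the first, by 2.73 (SE 0.091) against 5.80 on the log2 scale. The second Tph1 probe differed by 1.94 (SE 0.066) against 3.11, with its liver signal not well above background on any array.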
